A study of Neurospora crassa with 6 samples.

Results

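The genes described here carry glucose into *Neurospora crassa* and set how its genes respond to glucose. They are 7 of the 9730 genes measured, chosen by locus: the glucose transporter genes hgt-1 (NCU10021), hgt-2 (NCU04963) and glt-1 (NCU01633), the transporter-like sensor gene rco-3 (NCU02582), and the regulatory genes cre-1 (NCU08807), prk-10 (NCU04566, the Snf1-type kinase) and col-26 (NCU07788). No cut on their values was used to choose them, although earlier results of these data were known. All 7 passed the filter, an average of 1 FPKM or more over the 6 libraries. FPKM, fragments per kilobase of transcript scaled to the library's fragments, is a transcript level corrected for length. RNA came from conidia germinated for 5 hr at 30°C in liquid medium with 0.05% glucose, and the same treatments were given to wild type (wt, strain OR74A) and to os2, the strain UCLA 80A, a point mutant of the osmosensing MAP kinase gene os-2 that makes a truncated protein. There was 1 library per strain and condition: the control, which stayed at 30°C for 1 hr more, heat shock at 45°C for 2 hr (HS), and dual stress, the same heat with the glucose analog 2-deoxyglucose (2-DG) added (DS). HS and DS were separate cultures, each moved directly from 30°C, so DS does not follow HS in time. No group had a second library, so no difference below has a replicate check, no p-value is given, and a ratio describes 2 libraries. The mutant line has another background, SL4, so the os-2 mutation and the rest of the strain cannot be told apart. Temperature and the longer time in medium cannot be told apart either in the comparisons with the control, and the glucose left in each culture is not analysed here.

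Filamentous fungi take up glucose through membrane carriers of the major facilitator family. In *N. crassa*, HGT-1 and HGT-2 are high-affinity carriers that serve when glucose is scarce, and GLT-1 is a low-affinity carrier that serves when it is plentiful. RCO-3 resembles a sugar transporter but acts as a sensor that is needed for normal uptake. 2-DG enters cells through glucose carriers, and the names dgr-3 and sor-4, under which RefSeq also lists rco-3, come from mutants resistant to 2-DG and to sorbose. CRE-1 is the zinc finger repressor of genes for other carbon sources, the counterpart of CreA in *Aspergillus* and Mig1 in yeast. In *Saccharomyces cerevisiae* the Snf1 kinase relieves this repression when glucose runs out. COL-26 is a transcription factor needed for normal glucose sensing and starch use.

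In the RefSeq annotation of assembly NC12, hgt-1 lies on chromosome VII (1305454 to 1307833), hgt-2 on chromosome IV (872084 to 874450), glt-1 on chromosome II (2887726 to 2890393) and rco-3 on chromosome I (2804910 to 2808507). The regulatory genes lie on chromosome IV (cre-1, 5176440 to 5178927) and chromosome V (prk-10, 1659170 to 1662912, and col-26, 287232 to 291574). Levels were counted over whole genes, and the span of each of the 7 genes overlaps 0 other annotated genes. Sequence likeness among the transporter genes, and reads that they might share, were not analysed here.

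The 6 FPKM columns had totals from 426267 to 899576, and the median of the genes above 0 ran from 13.5 to 15.4. The median-ratio factor of a column is the median, over genes above 0 in every library, of its value over the gene's geometric mean. These factors ran from 1.004 to 1.024, so the deposited columns were near level at the middle gene. In wt HS 1 gene, ccg-1, held 51910 of the 542178 FPKM. Ratios are from the values as deposited. Scaling each column to the same sum moved every log2 ratio by 0.41 in wt HS/30, -0.73 in wt DS/HS, -0.32 in wt DS/30, 0.77 in os2 HS/30, -0.18 in os2 DS/HS and 0.59 in os2 DS/30. It moved those of os2/wt by -0.02 at 30°C, 0.35 in HS and 0.89 in DS. This scaling moves the middle gene away from 0. In os2/wt DS 46% of all genes were then at least 2-fold higher and 4.1% lower, against 11.4% and 16.5% as deposited. It is given as a check of sensitivity, and which scaling is nearer to the RNA in the cells was not tested. Directions that turn under this scaling are named beside the values, and ratios between 2 genes of 1 library are the same under any scaling. The transcript of os-2 (NCU07024) stood, in the order 30°C, HS and DS, at 113, 65.1 and 67.1 FPKM in wt and at 34.3, 37.0 and 37.5 FPKM in os2. As deposited it was lower in each os2 library than in the wt library of the same treatment, but with columns of the same sum the os2/wt log2 ratio in DS turned from -0.84 to 0.05, and a point mutation leaves a transcript that can be counted.

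The high-affinity gene hgt-1 had the highest level of the 7 genes in every library except os2 at 30°C, where glt-1 was slightly above it. In wt it stood at 1692 FPKM at 30°C, 2310 FPKM in HS and 1834 FPKM in DS. In os2 it stood at 609 FPKM at 30°C, 2434 FPKM in HS and 1161 FPKM in DS. As deposited the wt libraries lay close together and os2 at 30°C was the low one of the 6, but with columns of the same sum wt DS was past 2-fold below wt HS (log2 ratio -1.06). At least 98.24% of all genes were below hgt-1 in each library. Because whole cultures were measured, fewer cells of a kind and less RNA per cell cannot be told apart at this or any other gene here.

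hgt-2, the other high-affinity carrier gene, had a like pattern at a lower level. Its wt levels were 686 FPKM at 30°C, 631 FPKM in HS and 547 FPKM in DS. Its os2 levels were 308 FPKM at 30°C, 854 FPKM in HS and 324 FPKM in DS. Within a library hgt-1 was 1.98 to 3.66 times hgt-2, with the lowest ratio in os2 at 30°C and the highest in wt HS.

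The low-affinity carrier gene glt-1 moved differently. It was at 786 FPKM in wt at 30°C, 217 FPKM in wt HS and 782 FPKM in wt DS, so that wt HS was the low library and wt DS was near the control level. In os2 it was at 642 FPKM at 30°C, 517 FPKM in HS and 370 FPKM in DS, in falling order as deposited, although its HS level lies above its control with columns of the same sum.

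**Figure D1:**
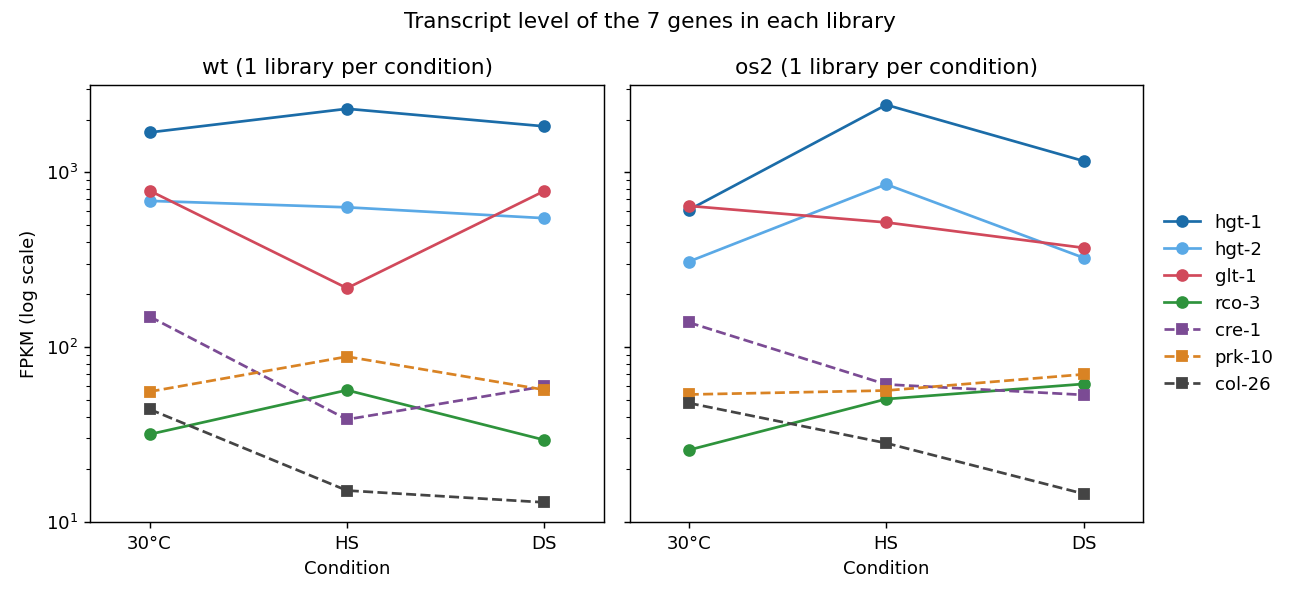
FPKM (log axis) of the 7 genes in the libraries of wt (left) and os2 (right) at 30°C, in HS and in DS. Each point is 1 library, circles mark transporter-family genes and squares regulatory genes, and lines join the libraries of 1 strain. In wt, glt-1 is at 217 FPKM in HS and at 786 and 782 FPKM in the other 2 libraries, while cre-1 and col-26 are highest at 30°C in both strains, except that col-26 in os2 is level between 30°C and HS with columns of the same sum.

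At 30°C the clearest difference between the strains was in the high-affinity genes. hgt-1 was 2.78-fold lower and hgt-2 2.23-fold lower in os2 than in wt (log2 ratios -1.47 and -1.16). Of all genes tested, 1.2% had a lower os2/wt ratio at 30°C than hgt-1, and 2.42% had a lower one than hgt-2. These were the 2 of the 7 genes at least 2-fold lower, with 0 higher, while 3% of all genes were at least 2-fold lower and 2.99% at least 2-fold higher. The other 5 had log2 ratios between -0.30 (rco-3) and 0.12 (col-26).

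In HS the strains did not show that difference. The os2/wt log2 ratio in HS was 0.08 for hgt-1 and 0.44 for hgt-2. glt-1 was 2.38-fold higher in os2 than in wt in HS, the 1 gene of the 7 past 2-fold there, with 0 lower, against 16.3% of all genes higher and 17.9% lower. With columns of the same sum 3 of the 7 were higher and 0 lower, against 26% and 12% of all genes. In DS the log2 ratios were -0.66 for hgt-1 and -0.75 for hgt-2, and with columns of the same sum both turned, to 0.23 and 0.14. glt-1 was 2.12-fold lower in os2 in DS (log2 ratio -1.08, or -0.19 with columns of the same sum). rco-3 was 2.09-fold higher there, so that 1 of the 7 genes rose and 1 fell, against 11.4% of all genes higher and 16.5% lower. This split rests on the scaling, since with columns of the same sum 3 rose (rco-3, prk-10 and col-26) and 0 fell, against 46% of all genes higher and 4.1% lower.

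Heat shock alone was compared by HS/30. In wt, 3 of the 7 genes fell at least 2-fold and 0 rose, where 27.7% of all genes fell and 28.3% rose. The 3 were cre-1 (log2 ratio -1.96), glt-1 (-1.85) and col-26 (-1.55), of which glt-1 was 3.62-fold lower. The high-affinity genes were at 0.45 (hgt-1) and -0.12 (hgt-2, or 0.29 with columns of the same sum). In os2 HS/30, 2 rose, hgt-1 by 4.0-fold and hgt-2 by 2.77-fold, and 1 fell, cre-1 (log2 ratio -1.18), against 19.3% of all genes higher and 15.1% lower. With columns of the same sum 2 rose and 3 fell in wt, against 36.2% and 19.9% of all genes, and 3 rose and 0 fell in os2, against 41.5% and 6.36%. The os2 ratio of hgt-1 was above that of 92.8% of all genes. For hgt-1 and hgt-2 the os2 HS/30 ratio and the os2/wt ratio at 30°C share the os2 library at 30°C, so they are not separate findings. glt-1 had an os2 HS/30 log2 ratio of -0.31, which turned to 0.46 with columns of the same sum.

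Adding 2-DG to the heat was compared by DS/HS. In wt 1 gene rose, glt-1 by 3.60-fold (log2 ratio 1.85), and 0 fell, where 21.1% of all genes rose and 20.3% fell. In os2 0 rose and 2 fell, hgt-1 by 2.10-fold and hgt-2 by 2.63-fold, where 10.2% of all genes rose and 7.37% fell. Of all genes, 6.2% had a lower os2 DS/HS ratio than hgt-1 and 2.76% a lower one than hgt-2. The wt log2 ratios of these genes were -0.33 and -0.21, and the os2 log2 ratio of glt-1 was -0.48. The wt count of 0 that fell became 3 with columns of the same sum (hgt-1, rco-3 and prk-10), against 43.7% of all genes lower and 11.7% higher, and in os2 col-26 then fell too, against 11.4% lower and 7.14% higher.

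**Figure D2:**
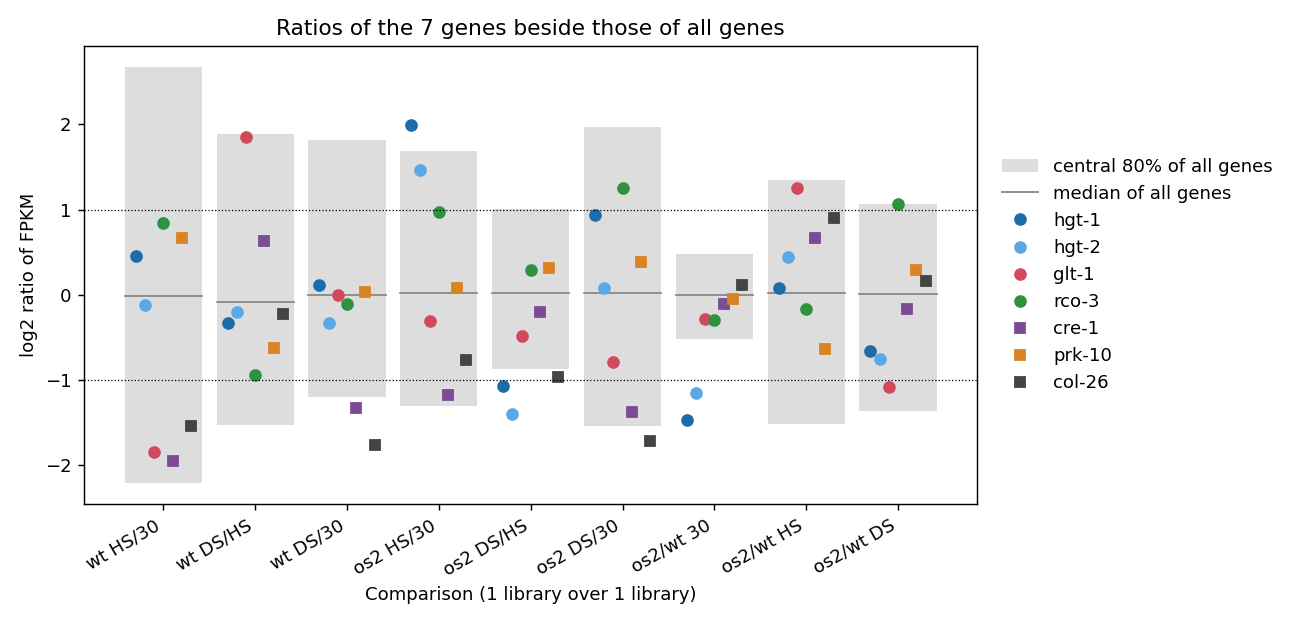
Log2 ratios of FPKM between 2 single libraries for the 7 genes (colored points) in 9 comparisons. Grey bars span the central 80% of all genes whose mean FPKM reached 1, the line in each bar is their median, and dotted lines mark 2-fold. At 30°C, hgt-1 (-1.47) and hgt-2 (-1.16) lie below the bar of os2/wt, and in os2 DS/HS they lie below its bar again at -1.07 and -1.40. col-26 lies below the bars of wt DS/30 (-1.77), os2 DS/HS (-0.96) and os2 DS/30 (-1.73). cre-1 (-1.33) is also below that of wt DS/30, and hgt-1 (2.00) is above that of os2 HS/30. With columns of the same sum the os2/wt DS points of hgt-1, hgt-2 and cre-1 change sign, as do those of hgt-2 and col-26 in HS/30 of wt and of os2, glt-1 in os2 HS/30, rco-3 in os2/wt HS, cre-1 in wt DS/HS, and hgt-1 and prk-10 in wt DS/30.

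The comparison of DS with the control shares its libraries with the HS/30 and DS/HS comparisons. In wt DS/30, 0 of the 7 genes rose and 2 fell, cre-1 (log2 ratio -1.33) and col-26 (-1.77), against 19.4% of all genes higher and 15.1% lower, or 14.6% and 25% with columns of the same sum, where the members' counts were again 0 and 2. The 4 transporter-family genes were within 0.33 of 0 on the log2 scale there, and the values of 0.12 for hgt-1 and 0.03 for prk-10 turned to -0.21 and -0.29 with columns of the same sum. In os2 DS/30, 1 rose, rco-3 by 2.39-fold, and 2 fell, cre-1 (-1.38) and col-26 (-1.73), against 23.3% of all genes higher and 19.4% lower. As deposited hgt-1 was 1.91-fold higher in os2 DS than at 30°C, short of 2-fold, but with columns of the same sum its log2 ratio was 1.52. The os2 count was then 2 that rose and 1 that fell, against 37.6% of all genes higher and 9.46% lower.

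Summed over hgt-1, hgt-2, glt-1 and rco-3, the 3 wt libraries had nearly equal levels, 3196 FPKM at 30°C, 3215 FPKM in HS and 3192 FPKM in DS. The os2 sums were 1585 FPKM at 30°C, 3856 FPKM in HS and 1916 FPKM in DS. Under the scaling to one column sum the wt totals were no longer equal, with log2 ratios of 0.42 for HS/30 and -0.32 for DS/30. What made up the sum differed: hgt-1 gave 52.9% of it in wt at 30°C and 71.9% in wt HS, and 38.4% in os2 at 30°C and 63.1% in os2 HS. The share of glt-1 at 30°C, HS and DS was 24.6%, 6.76% and 24.5% in wt, and 40.5%, 13.4% and 19.3% in os2.

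Ratios of genes within a library restate these levels and do not depend on scaling. hgt-1 was 2.15 times glt-1 in wt at 30°C, 10.6 times in HS and 2.34 times in DS. In os2 it was 0.948 times glt-1 at 30°C, 4.71 times in HS and 3.14 times in DS. The ratio was thus highest in HS in both strains, near the control in wt DS and above it in os2 DS. In wt HS/30 the log2 ratios were 0.45 for hgt-1 and -1.85 for glt-1. In os2 HS/30 they were 2.00 and -0.31, the latter 0.46 with columns of the same sum. hgt-2 over glt-1 had its peak in HS too, at 2.90 in wt and 1.65 in os2, and was 0.874 and 0.480 at 30°C and 0.699 and 0.877 in DS.

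**Figure D3:**
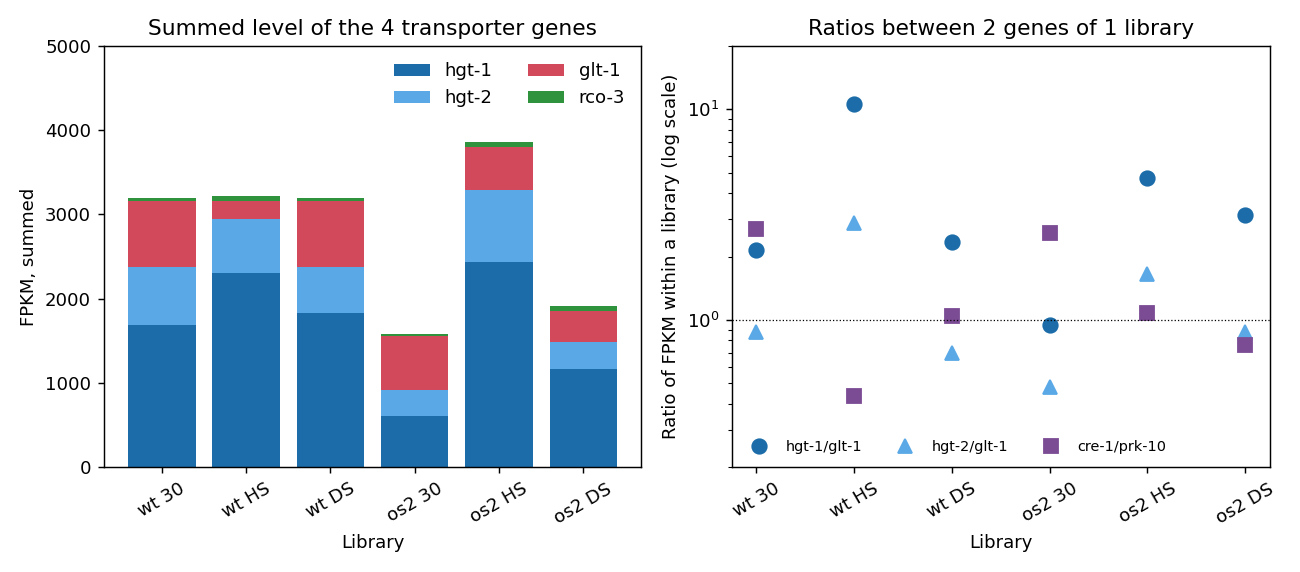
Left, FPKM of hgt-1, hgt-2, glt-1 and rco-3 stacked for each of the 6 libraries as deposited. Right, ratios (log axis) of hgt-1 to glt-1, hgt-2 to glt-1 and cre-1 to prk-10 within each library, which no scaling of columns changes. The 3 wt sums lie between 3192 and 3215 FPKM, a closeness that columns of the same sum do not keep, and hgt-1 over glt-1 peaks under HS at 10.6 in wt and 4.71 in os2.

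The sensor gene rco-3 was far below the carriers, between 0.920% and 3.21% of the summed level. It was at 31.7 FPKM in wt at 30°C, 56.7 FPKM in HS and 29.4 FPKM in DS. In os2 it was at 25.7 FPKM at 30°C, 50.4 FPKM in HS and 61.5 FPKM in DS. The HS libraries of both strains lay above their controls, by log2 ratios of 0.84 and 0.97, neither of which reached 2-fold, and wt DS was at its control while os2 DS was the highest of the 6. Those HS/30 ratios passed 2-fold with columns of the same sum, at 1.25 and 1.74. The DS/HS log2 ratio was -0.95 in wt and 0.29 in os2.

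cre-1, the catabolite repressor gene, was highest at 30°C in both strains. It had 149.6 FPKM in wt at 30°C, 38.5 FPKM in HS and 59.6 FPKM in DS. In os2 it had 138 FPKM at 30°C, 61.1 FPKM in HS and 53.3 FPKM in DS. The 4 heated libraries were all below both controls, and the strains differed by a log2 ratio of -0.11 at 30°C. In wt it fell 3.88-fold with HS and 2.51-fold with DS. In os2 the falls were 2.26-fold with HS and 2.60-fold with DS. The os2 falls no longer reached 2-fold with columns of the same sum, at log2 ratios of -0.40 and -0.79, and the wt DS/HS value of 0.63 turned to -0.10.

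col-26, the gene of the glucose-sensing transcription factor, also had its 2 highest values in the controls as deposited, while with columns of the same sum its os2 HS level came to that of the os2 control. Its levels were 44.1 FPKM at 30°C, 15.1 FPKM in HS and 12.9 FPKM in DS in wt. In os2 they were 47.8 FPKM at 30°C, 28.2 FPKM in HS and 14.5 FPKM in DS. The DS libraries were 3.41-fold below the control in wt and 3.31-fold in os2. The os2/wt log2 ratio in DS was 0.16 as deposited but 1.06 with columns of the same sum. Of all genes, 3.06% had a lower wt DS/30 ratio than col-26. Its os2 HS/30 log2 ratio was -0.76, or 0.01 after that scaling.

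prk-10, the gene of the kinase that acts on the repressor pathway in yeast, varied least of the 7 as deposited. In the same order of treatments, its levels were 55.6, 88.2 and 56.9 FPKM in wt and 53.5, 56.4 and 69.8 FPKM in os2. The highest library was 1.65 times the lowest, where this quotient was between 2.39 (rco-3) and 4.0 (hgt-1) for the others. No comparison of prk-10 reached 2-fold as deposited. Within a library cre-1 was 2.69 times prk-10 in wt at 30°C and 2.58 times in os2 at 30°C, and 0.437 and 1.08 times in HS and 1.05 and 0.763 times in DS, so that each heated library was below both controls without any scaling.

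The patterns of 2 genes over the 6 libraries were compared by the root mean square difference of their centred log2 FPKM, where 0 is an identical pattern. The libraries share strains and conditions, so the values are descriptions. Among the 7 genes the nearest pairs were hgt-1 with hgt-2 (0.32, Pearson r = 0.89, n = 6 libraries), rco-3 with prk-10 (0.35, r = 0.74) and cre-1 with col-26 (0.36, r = 0.89). As deposited glt-1 and prk-10 had r = -0.94, and the farthest pair was hgt-1 and cre-1 (1.25). Scaling of columns leaves the root mean square differences unchanged but not r, which was not recalculated. With columns of the same sum glt-1 and prk-10 both rose in os2 HS/30, at log2 ratios of 0.46 and 0.85. Over 5580 genes that averaged 10 FPKM or more and were above 0 in every library, the nearest to hgt-1 was NCU09287 (0.22), and NCU09783 was second nearest to both hgt-1 (0.28) and hgt-2 (0.23), after NCU00643 (0.22) for hgt-2. The nearest to cre-1 was pex4 (0.09), named for peroxisome biogenesis, and to col-26 tim9 (0.15), named for import into mitochondria. pex8 was second nearest to rco-3 (0.12) after NCU02433 (0.11). For glt-1 the nearest were NCU03632 (0.10) and NCU03094 (0.11), and for prk-10 NCU04274 and NCU03878 (0.07 each), none with a symbol in RefSeq. NCU04983 (0.10) and NCU16791 (0.16) were second nearest to cre-1 and col-26.

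A list of 17 genes was taken as glucose-repressed, of which 16 passed the filter. Which of them CRE-1 controls was not analysed here. The list was chosen with earlier results of these data known. The paper's upregulated transcripts, from these same libraries, include gla-1, acu-6 and fbp-1 (wt HS/30 log2 ratios 3.28, 4.37 and 2.38 here). The counts are therefore descriptions and no independent check. In wt HS/30, 8 of the 16 rose at least 2-fold and 1 fell, where 28.3% of all genes rose and 27.7% fell, and the median log2 ratio was 1.03 against -0.02 over all genes. In wt DS/HS 1 rose and 8 fell, where 21.1% of all genes rose and 20.3% fell, with a median of -0.995 against -0.09. In os2 HS/30, 8 rose and 0 fell, where 19.3% of all genes rose and 15.1% fell (median 0.94 against 0.02 over all genes). In os2 DS/HS 0 rose and 4 fell, where 10.2% and 7.37% did (median -0.39 against 0.02). These medians kept their signs with columns of the same sum. In wt DS/30, 4 rose and 1 fell, where 19.4% of all genes rose and 15.1% fell (median 0.67 against -0.002), or 3 and 3 with columns of the same sum. In os2 DS/30, 6 rose and 2 fell, where 23.3% and 19.4% did (median 0.39 against 0.02), or 8 and 0 with columns of the same sum. Between the strains, 0 rose and 4 fell in os2/wt at 30°C, where 2.99% of all genes rose and 3% fell. Among these 4, gh10-2 was low at 30°C, at 2.14 FPKM in wt and 0.913 FPKM in os2. With a pseudocount of 1 FPKM, 3 of the list fell. The counts were 1 and 7 in HS (all genes 16.3% and 17.9%, or 2 and 4 of the list with columns of the same sum). In DS they were 1 and 4 (all genes 11.4% and 16.5%), but with columns of the same sum 5 and 2, and the median turned from -0.53 to 0.36. All-gene medians lay between -0.01 and 0.02 in these 3 comparisons.

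Of this list, ccg-1, a clock-controlled glucose-repressed gene, had the largest wt HS/30 ratio. Its levels at 30°C, HS and DS were 282, 51910 and 12535 FPKM in wt and 71.95, 209.6 and 414 FPKM in os2. acu-6, for phosphoenolpyruvate carboxykinase of gluconeogenesis, was at 8.89, 184 and 29.6 FPKM in wt and 6.70, 26.2 and 17.2 FPKM in os2. gh1-1, for a beta-glucosidase that releases glucose from cellobiose, was at 8.58, 16.9 and 4.25 FPKM in wt and 4.75, 6.67 and 3.16 FPKM in os2. All 3 were highest in HS in wt, and of them ccg-1 alone was highest in DS in os2. Invertase, inv, which splits sucrose, was at 677, 438 and 542 FPKM in wt and 221, 634 and 117 FPKM in os2, so that in os2 it was highest in HS.

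Of 11 other genes listed with the regulators, 9 could be named and passed the filter. They include the enzyme genes of hexokinase and glucokinase. Glucokinase (log2 ratio 2.69 in wt HS/30, 2.31 in wt DS/30 and -1.31 in os2/wt DS) and hexokinase (-1.20 in wt HS/30) enter the counts below. The paper lists glucokinase as upregulated and vib-1 as downregulated in these same libraries, so the counts are descriptions. In wt HS/30, 2 of the 9 rose and 2 fell, against 28.3% and 27.7% of all genes (median log2 ratio 0.48 against -0.02). In wt DS/HS 1 rose and 2 fell, against 21.1% and 20.3%, or 1 and 4 with columns of the same sum, where the median turned from 0.17 to -0.56. In wt DS/30 2 rose and 0 fell, against 19.4% and 15.1%, and the median of 0.02 turned to -0.31. In os2 HS/30 4 rose and 0 fell, against 19.3% and 15.1% (median 0.50 against 0.02), and in os2 DS/HS 0 and 2, against 10.2% and 7.37% (-0.52 against 0.02). In os2 DS/30 1 rose and 2 fell, against 23.3% and 19.4%, or 3 and 0 with columns of the same sum, where the median turned from -0.01 to 0.58. In os2/wt 0 rose and 1 fell at 30°C, against 2.99% and 3%, and 1 and 2 in HS, against 16.3% and 17.9%. In os2/wt DS 0 rose and 3 fell, against 11.4% and 16.5%, but with columns of the same sum 1 rose and 0 fell and the median turned from -0.39 to 0.50.

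clr-2, for a transcription factor of cellulose use, was at 0.468, 13.7 and 6.65 FPKM in wt and 0.809, 5.09 and 5.57 FPKM in os2. vib-1, for a transcription factor needed for cellulase production, was at 59.9, 9.97 and 57.3 FPKM in wt and 66.5, 34.2 and 22.9 FPKM in os2. It was low in wt HS alone among the wt libraries, as glt-1 was, and in os2 it was highest at 30°C and lowest in DS. xlr-1, for the xylanase regulator, was at 26.9, 44.6 and 27.2 FPKM in wt and 11.3, 68.5 and 20.7 FPKM in os2, and its os2 order of HS, DS and 30°C was that of hgt-1. clr-1, for another regulator of cellulose use, was at 14.5, 20.2 and 9.996 FPKM in wt and 13.9, 29.5 and 13.4 FPKM in os2, highest in HS in both strains.

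Of 9 other sugar transporter genes listed, 3 could be named, and all 3 were below 40 FPKM in each library. cdt-2, a carrier of cellulose breakdown products, was at 3.07, 37.0 and 11.95 FPKM in wt and at 1.11, 8.84 and 7.20 FPKM in os2, again for 30°C, HS and DS. cdt-1, of the same kind, was at 7.19, 22.2 and 7.34 FPKM in wt and 6.19, 13.7 and 10.3 FPKM in os2. The quinate carrier gene qa-Y was at 13.1, 23.3 and 13.9 FPKM in wt and 17.5, 22.1 and 19.7 FPKM in os2. Each of the 3 was highest in HS in both strains, and 2 of 3 rose at least 2-fold in HS/30 in both strains, where 28.3% of all genes rose in wt and 19.3% in os2. The median HS/30 log2 ratio was 1.63 in wt and 1.15 in os2, against -0.02 and 0.02 over all genes. In wt DS/HS 0 rose and 2 fell, where 21.1% and 20.3% of all genes did (median -1.60 against -0.09), and in os2 DS/HS 0 rose and 0 fell, where 10.2% and 7.37% did (median -0.30 against 0.02). In DS/30, 1 rose and 0 fell in each strain, where 19.4% of all genes rose in wt and 23.3% in os2, and with columns of the same sum 2 rose in os2. In os2/wt 0 rose and 1 fell at 30°C and in HS, where 3% and 17.9% of all genes fell. In os2/wt DS 0 passed 2-fold as deposited, where 11.4% of all genes rose and 16.5% fell, but 2 rose with columns of the same sum.

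**Figure D4:**
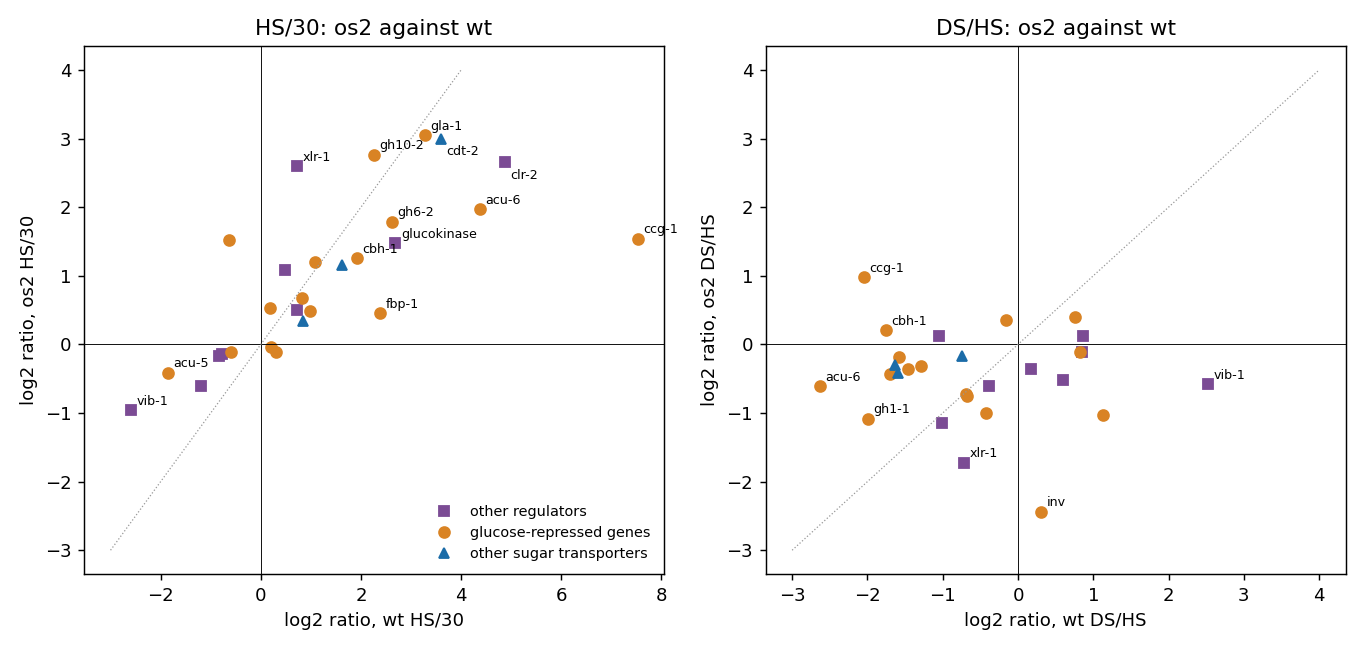
Log2 ratio of FPKM in os2 (y axis) against wt (x axis) for HS/30 (left) and DS/HS (right). Each point is 1 named gene of the glucose-repressed list, the other regulators or the other sugar transporters. The points of the other regulators include the enzyme genes of hexokinase and glucokinase. The dotted line marks equal ratios. In DS/HS, vib-1 lies far to the right of 0 in wt and inv far below 0 in os2, and columns of the same sum move all points of a panel together, which turns the wt DS/HS sign of inv, acu-15 and the hexokinase gene and the os2 DS/HS sign of clr-2 and rcm-1. In HS/30 it turns the os2 sign of rco-1, rcm-1, the hexokinase gene, gh5-1, gh13-1, acu-3 and acu-5.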

How the data were processed

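Polyadenylated RNA of wt and os2 was sequenced in 6 libraries, 1 per strain and condition. According to the paper's methods and the submitters' processing notes, the authors ran CASAVA 1.8.2 and FastQC, aligned reads with TopHat to the 74a_12 reference, and deposited FPKM values from Cufflinks. Versions other than that of CASAVA, and the scaling between libraries, are not given in the sources used here. Fragments per gene were not used here, so the sampling error of a value is unknown. Columns were matched to samples by title, and 0 were left unmatched.

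For each comparison the log2 of the quotient of 2 FPKM values was taken, with no pseudocount, where both were above 0. Changes were counted from 2-fold, over the 8098 genes that averaged 1 FPKM or more. With 1 library per group no test was run, and a model over all 6 libraries without interaction was not fitted. Of 9731 table lines, 1 without an identifier was left out. Symbols came from RefSeq (assembly NC12), which matched 9729 identifiers and gives a symbol for 5 of the 7 genes. The names hgt-2 and glt-1 are common names, and rco-3 is a synonym of sor-4 there. The members and lists were chosen with earlier results of these data known. Genes named by plan were the 7 members, os-2, the 2 genes of nearest pattern for each member, and from each list the 2 to 4 genes with the largest absolute DS/HS log2 ratio in either strain. Other list genes were named where the paper lists them, where a count has a limit, or where signs turn in a figure. List genes that neither RefSeq nor the paper names in that role were left out. Protein likeness and promoter motifs were planned and are not analysed here.

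The alternatives were columns of the same sum, of the same median ratio or of the same upper quartile, pseudocounts of 0.1 and 1, fold limits of 1.5 and 3, and either no filter or one at an average of 10 FPKM. The scripts ran under Python 3.11.15 with numpy 2.4.6, pandas 2.3.3 and matplotlib 3.10.9 and were tested on simulated data.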

Additional observations from a re-analysis of the deposited data

Results flagged for a closer look

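For several genes the same treatment moved the 2 strains to opposite sides, each from 1 library per strain and condition, and these differences were not tested. The os2 log2 ratio less the wt log2 ratio was 1.59 for hgt-2 in HS/30 (-0.12 in wt and 1.47 in os2), and 0.40 in DS/30. It was -2.33 for glt-1 in DS/HS, with 1.85 in wt and -0.48 in os2. For rco-3 it was 1.24 in DS/HS and 1.36 in DS/30, where os2 DS was the highest library. For cre-1 in DS/HS it was -0.83 and for prk-10 in DS/HS 0.94. Of all genes, 7.79% had a lower difference than glt-1 in DS/HS, 6.74% a higher one than hgt-2 in HS/30 and 4.84% a higher one than rco-3 in DS/30. The others lay nearer the bulk: 26.3% of all genes were lower than cre-1 in DS/HS. Higher were 27% than prk-10 and 19.6% than rco-3 in DS/HS, and 32.9% than hgt-2 in DS/30. Only opposite signs as deposited were flagged, which left out 1.55 for hgt-1 and 1.54 for glt-1 in HS/30. With columns of the same sum, the wt and os2 values of hgt-2 in HS/30 had the same sign, since the wt value turned to 0.29, and so did those of cre-1 in DS/HS.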

How the results depend on the processing

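Counts of the 7 genes past 2-fold depended on the limit and on the scaling. With columns of the same sum they were 5 in wt HS/30, 4 in wt DS/HS and 3 in os2/wt HS, and with the upper quartile 2 in wt DS/HS. At 1.5-fold they were 5 in wt HS/30, 4 in wt DS/HS, 5 in os2 HS/30, 5 in os2 DS/30, 4 in os2/wt HS and 4 in os2/wt DS. At 3-fold they were 1 in wt DS/30, 1 in os2 HS/30, 1 in os2 DS/30 and 0 in os2 DS/HS and in the 3 comparisons of os2 with wt. Over the genes that averaged 10 FPKM or more, 3.1% were past 2-fold in os2/wt 30. The log2 ratio of the summed transporter levels in os2/wt 30, -1.01 as deposited, was -0.999 with the median ratio and -0.97 with the upper quartile. That of os2/wt DS, -0.74 as deposited, was 0.16 with columns of the same sum, and that of wt DS/30 was 0.019 with the upper quartile. Of 63 log2 ratios of the 7 genes, none past 2-fold turned sign under these scalings and pseudocounts. With columns of the same sum 38 kept their sign and side of 2-fold, 12 passed 2-fold, 3 no longer passed it and 10 values under 2-fold turned sign. The median ratio and both pseudocounts left all 63 on the same side, and the upper quartile 59, with 3 more past 2-fold and 1 turned sign (glt-1 in wt DS/30, -0.01 to 0.01). The 2 added recalculations were chosen after seeing the data. The share of all genes past 2-fold in os2/wt DS was 50.1% with columns of the same sum. Of the lists' counts, those of the regulators became 5 (same sum) and 1 (pseudocount 1) in wt DS/HS and 1 (same sum) in os2/wt DS, those of the glucose-repressed genes 3 in wt DS/30 (either pseudocount) and 2 in os2 DS/HS (pseudocount 1), and those of the transporters 2 in os2 DS/30 and os2/wt DS (same sum) and 0 in os2/wt 30 (pseudocount 1), while the others stayed within 1.5 times. These counts join both directions, so a stable count can hide a turn. With columns of the same sum the higher and lower genes of the glucose-repressed list in os2/wt DS went from 1 and 4 to 5 and 2. Those of the regulators in os2 DS/30 went from 1 and 2 to 3 and 0, and those of the 7 members in os2/wt DS from 1 and 1 to 3 and 0. Leaving out a library leaves no value for its comparison. No paired analysis was possible because the groups share fewer than 2 replicate numbers, each having 1 library, and os2 and wt were not paired by treatment in a model over all 6. The unknown number of fragments per gene limits the precision of each value.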
